A study of Homo sapiens with 4 samples.

Results

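The E2F and retinoblastoma family genes are the transcription factors E2F1 to E2F8 and the pocket proteins RB1 and RBL1, 10 genes of the 60617 measured. They were taken by symbol from the Ensembl gene IDs of the deposited table, and all 10 passed the filter on low counts. RNA-seq libraries were made from A673 cells, a line from a human Ewing sarcoma that is driven by a fusion of EWSR1 to FLI1. One group received CBL0137 at 1 µM for 24 h, and the other received DMSO, the solvent, for 24 h. CBL0137 is a DNA-binding curaxin that traps the histone chaperone FACT on chromatin. Each group had 2 libraries of this single line, grown in serum-containing medium.

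E2F proteins bind the promoters of genes needed for DNA replication and cell division. E2F1, E2F2 and E2F3 mainly activate these genes, E2F4 and E2F5 mainly repress them together with pocket proteins, E2F6 represses with polycomb proteins, and the atypical E2F7 and E2F8 repress without a pocket protein or a DP partner. RB1 and RBL1 (p107) hold E2Fs in check until cyclin-dependent kinases phosphorylate them, so the family sits at the switch between rest and the next round of DNA replication. Several of these genes are E2F targets themselves.

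The upstream sequences of 4 members are shown because they carry E2F-type letters close to the start, in genes that passed the adjusted p (E2F2 lower, E2F3 higher) and in genes that did not (E2F1, RBL1). RefSeq promoter entries (build GRCh38.p14) matched 8 of the 10 members. E2F5 and E2F8 had no entry, so their upstream sequences were not scanned. Each line gives the 80 bases just before the annotated start, 5′ to 3′ on the gene's strand, with the matches in capitals. They lie at chr20:33686386-33686465 (minus strand, E2F1), chr1:23531234-23531313 (minus, E2F2), chr6:20401799-20401878 (plus, E2F3) and chr20:37095998-37096077 (minus, RBL1).
E2F1: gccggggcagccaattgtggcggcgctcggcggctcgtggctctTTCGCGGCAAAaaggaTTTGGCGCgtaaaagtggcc
E2F2: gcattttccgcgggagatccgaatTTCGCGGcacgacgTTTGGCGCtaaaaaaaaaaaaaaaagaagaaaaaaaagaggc
E2F3: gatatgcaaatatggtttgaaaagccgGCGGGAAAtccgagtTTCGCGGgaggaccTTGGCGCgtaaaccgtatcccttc
RBL1: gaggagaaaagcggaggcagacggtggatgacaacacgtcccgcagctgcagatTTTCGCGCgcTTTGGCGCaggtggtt
The capitals mark the octamers TTTCCCGC, TTTCGCGC, TTTGCCGC and TTTGGCGC, and heptamers, on either strand. The heptamers are the last 7 letters of each octamer, and the same letters with a final G in place of the final C, so the sets overlap. An octamer stood within the 250 bases upstream in 2.79% of all 35116 RefSeq windows, and a heptamer in 20.2%. E2F1, E2F2 and E2F3 share the heptamers TTCGCGG and TTGGCGC in that order, and RBL1 has 2 octamers on the gene's strand. E2F3 also has a second entry, for a start further into the gene, that holds neither set; the gene counts join transcripts from both starts. Of the scanned members not shown, E2F6 and E2F7 each had 2 heptamers and 0 octamers in the 250 bases upstream, and E2F4 and RB1 had neither. A match describes letters only.

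After CBL0137 the atypical repressor E2F8 was the member that changed most, to 0.522 times its DMSO level. Its counts were 288 and 325 reads in CBL0137 replicates 1 and 2, against 603 and 603 reads in DMSO replicates 1 and 2. Scaled to depth as CPM with TMM factors (counts of a gene relative to all gene counts of its library), E2F8 measured 13.7 and 14.0 in CBL0137 and 26.4 and 26.7 in DMSO. Both CBL0137 libraries were low and the groups did not overlap. The log2 fold change was -0.94 ± 0.09 (SE), with a 95% interval of -1.12 to -0.75 and an edgeR quasi-likelihood adjusted p of 6.1e-09 (Benjamini-Hochberg over all genes tested). E2F8 (ENSG00000129173, chromosome 11, 19245610 to 19263167 in GRCh37, minus strand) was thus called lower, where a call needs a fold change above 1.5 as well as an adjusted p under 0.05. Among all 17309 genes tested, 1.36% had a lower log2 fold change than E2F8. In bulk RNA, fewer cells that express a gene and less RNA per cell cannot be told apart.

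Of the 10 genes, 1 was called lower, 0 were called higher and 9 were not called. Over all genes tested, 9.61% were called, 2.73% lower and 6.88% higher. By adjusted p alone, 3 members were lower and 1 was higher, and over all genes tested 36.5% passed, 19% lower and 17.5% higher. DESeq2 put 2 members lower and 1 higher by adjusted p, and limma-voom 3 lower and 1 higher. The count was 1 lower and 0 higher on FPKM, 2 lower and 2 higher with library size alone, 5 lower and 1 higher without CBL0137 replicate 1, and 2 lower and 1 higher without DMSO replicate 1. By both rules the number of members past the test, 1 and 4 of 10, was near the share of all genes. The 2 groups' CPM did not overlap for 6 of 10 members, against 66.9% of all genes tested. The members' median log2 fold change was -0.08, and that of all genes tested was 0.003. The members' median was -0.15 without CBL0137 replicate 1 and -0.02 without CBL0137 replicate 2.

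**Figure D1:**
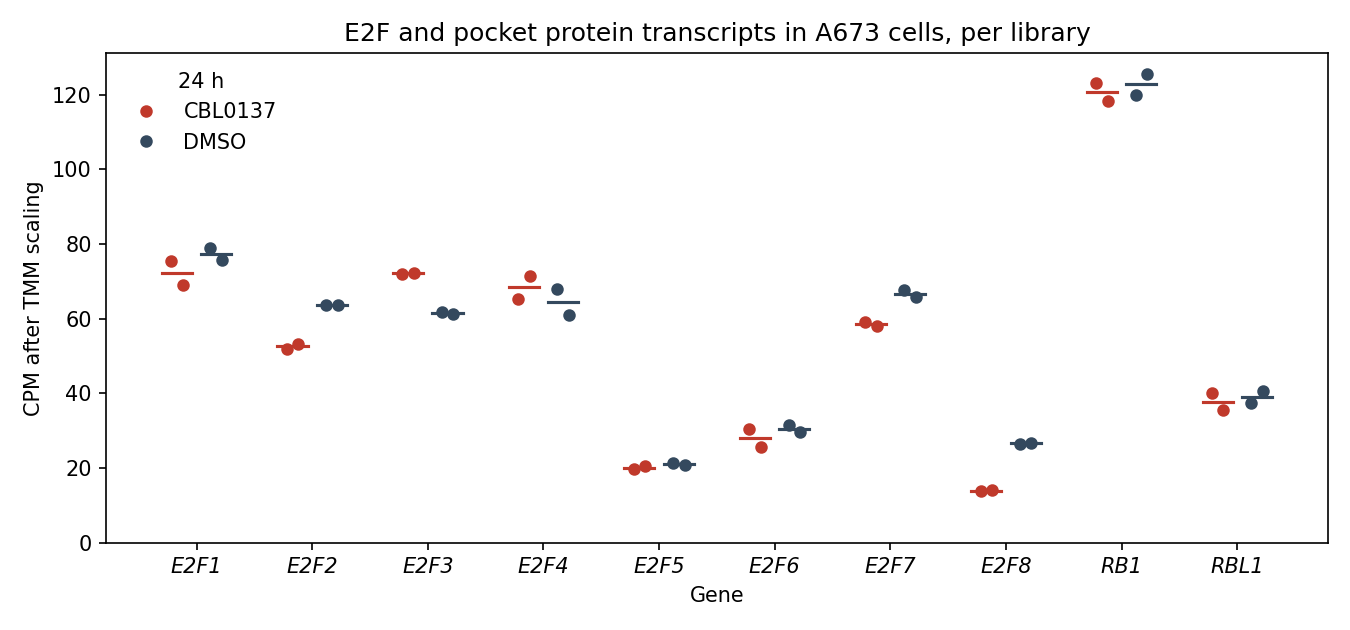
Level of each gene in every library, in CPM after TMM scaling (vertical axis, linear from 0), with CBL0137 libraries in red left of the DMSO libraries in dark blue. Points are libraries and bars are group means (n = 2 each). E2F8 stands at 13.7 and 14.0 in CBL0137 and at 26.4 and 26.7 in DMSO, while the groups overlap for E2F4, E2F6, RB1 and RBL1.

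The activator E2Fs differed in their direction. E2F2 (ENSG00000007968, chromosome 1, 23832930 to 23857725, minus strand) measured 51.8 and 53.3 CPM in CBL0137, against 63.6 and 63.7 CPM in DMSO. The groups did not overlap, and the log2 fold change of -0.28 ± 0.06 had an edgeR adjusted p of 3.3e-04, inside the fold limit. E2F3 (ENSG00000112242, chromosome 6, 20402110 to 20493945, plus strand) went the other way. It measured 71.9 and 72.3 CPM in CBL0137, against 61.9 and 61.2 CPM in DMSO. Its log2 fold change was 0.23 ± 0.05 with an edgeR adjusted p of 0.00136, again inside the fold limit. E2F1, the founding member of the family, measured 75.3 and 68.9 CPM in CBL0137 and 79.0 and 75.6 CPM in DMSO, so the nearest libraries of the groups almost met. Its log2 fold change of -0.10 ± 0.05 did not pass (edgeR adjusted p = 0.158), and the 95% interval of -0.21 to 0.01 excludes a fold change of 1.5. E2F1 passed the adjusted p without CBL0137 replicate 1 (-0.17, edgeR adjusted p = 0.0293), and its log2 fold change was -0.04 without CBL0137 replicate 2.

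Within a library, the log2 ratio of E2F3 to E2F2 was 0.47 and 0.44 in CBL0137, against -0.04 and -0.06 in DMSO, a difference of 0.51. The log2 ratio of E2F3 to E2F1 was -0.07 and 0.07 in CBL0137, against -0.35 and -0.30 in DMSO. In both ratios every CBL0137 library was above every DMSO library, but an exact two-sided permutation test of 2 against 2 cannot give a p below 0.333. Limma-trend on the deposited FPKM (fragments per kilobase of transcript, scaled to depth) did not pass E2F2 (-0.16, adjusted p = 0.188) or E2F3 (0.26, adjusted p = 0.296). The FPKM of E2F3 was 3.07 and 4.14 in CBL0137 and 3.08 and 2.56 in DMSO, so on that scale the groups overlapped.

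**Figure D2:**
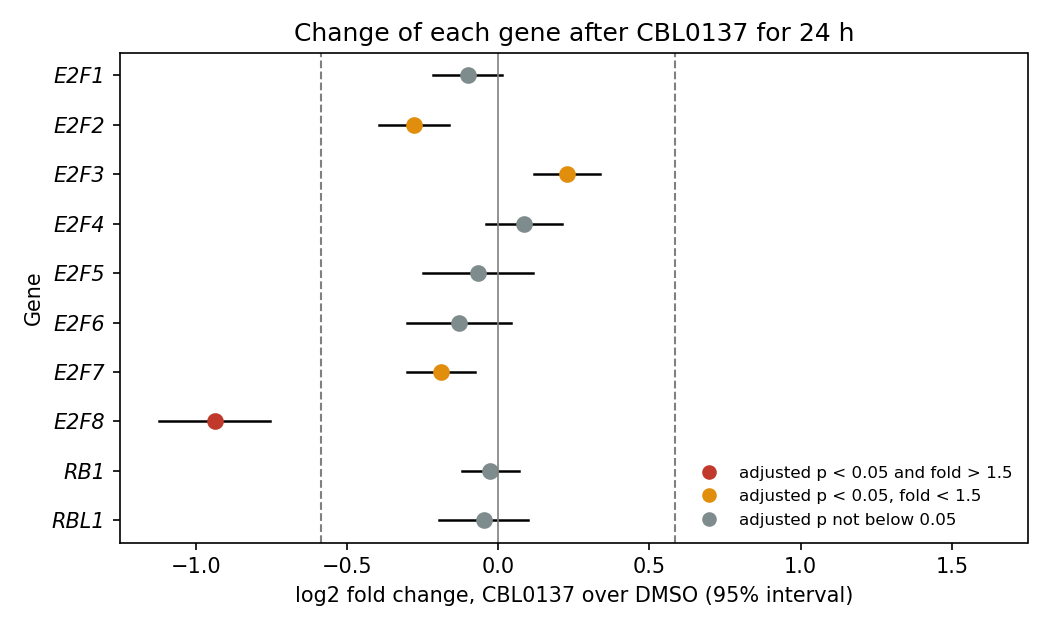
Log2 fold change of CBL0137 over DMSO for each gene (horizontal axis), with bars for the 95% interval from edgeR's quasi-likelihood fit of 4 libraries and dashed lines at the fold limit of 1.5. E2F8 at -0.94 lies wholly past the limit, E2F2, E2F3 and E2F7 lie inside it with an adjusted p under 0.05, and the intervals of the other 6 include 0.

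The repressors E2F4 and E2F5, which work with pocket proteins, and the repressor E2F6 were not called. E2F4, usually the main E2F of resting cells, measured 65.2 and 71.5 CPM in CBL0137 and 67.8 and 61.1 CPM in DMSO, and these ranges overlap. Its log2 fold change was 0.09 ± 0.06 (edgeR adjusted p = 0.288; 95% interval -0.04 to 0.21). With single libraries left out it ranged between 0.0037 (without DMSO replicate 2) and 0.157 (without DMSO replicate 1), and with library size alone it was 0.147 and passed (edgeR adjusted p = 0.0427). E2F5, on chromosome 8, had 412 and 477 reads in CBL0137 and 487 and 469 reads in DMSO. Scaled to depth it measured 19.6 and 20.6 CPM in CBL0137 and 21.3 and 20.8 CPM in DMSO, and the groups narrowly did not overlap. The log2 fold change of E2F5 was -0.07 ± 0.09 (edgeR adjusted p = 0.596, interval -0.25 to 0.11). The sign for E2F5 turned on the FPKM scale (0.0366). Of the annotated exon bases of E2F5, 16.5% are overlapped by RBIS on the opposite strand. RBIS had 123 and 100 reads in CBL0137 and 161 and 159 in DMSO, and the sources used here do not give whether counting used strand. E2F6, the polycomb-linked repressor, measured 30.4 and 25.6 CPM in CBL0137 and 31.6 and 29.5 CPM in DMSO. The groups overlap, and its log2 fold change of -0.13 ± 0.08 did not pass (edgeR adjusted p = 0.24). It passed without CBL0137 replicate 1 (-0.26, edgeR adjusted p = 0.025) and was -0.0076 without CBL0137 replicate 2, so the value rests on which CBL0137 library is kept.

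E2F7, the other atypical repressor and the usual partner of E2F8 in dimers, showed a much smaller difference. It measured 59.1 and 58.0 CPM in CBL0137, against 67.6 and 65.7 CPM in DMSO. E2F7 (ENSG00000165891, chromosome 12, 77415028 to 77459349, minus strand) changed by -0.19 ± 0.05 on the log2 scale (edgeR adjusted p = 0.00843), inside the fold limit. Its adjusted p no longer passed under library size alone (0.0739), DESeq2 (0.0701), FPKM (0.617) or without DMSO replicate 1 (0.0742). The log2 ratio of E2F8 to E2F7 within a library was -2.11 and -2.05 in CBL0137, against -1.36 and -1.30 in DMSO. The difference of -0.75 was larger than the spread within either group, and 0.333 is again the smallest exact permutation p that 2 against 2 libraries allow.

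Neither pocket protein of the set, which bind E2Fs and block or convert their activity, was called. RB1 (ENSG00000139687, chromosome 13, 48877880 to 49173572, plus strand) measured 123 and 118 CPM in CBL0137 and 120 and 126 CPM in DMSO. Its log2 fold change was -0.03 ± 0.05 with a 95% interval of -0.12 to 0.07 (edgeR adjusted p = 0.702), which leaves out changes of 1.5-fold in either direction. LPAR6, a receptor gene within an RB1 intron on the opposite strand, shares no exon base with it. RBL1 (p107), whose upstream window holds the 2 octamers shown above, measured 39.9 and 35.6 CPM in CBL0137 and 37.4 and 40.6 CPM in DMSO. The ranges overlap, and the log2 fold change was -0.05 ± 0.07 (edgeR adjusted p = 0.643; interval -0.20 to 0.10). The sign of RB1 turned on FPKM, with scaling by library size alone or upper quartiles, and without CBL0137 replicate 2, and that of RBL1 under library size alone and without CBL0137 replicate 2 or DMSO replicate 2. RBL2 (p130), the remaining pocket protein and no member of the set, measured 81.6 and 89.7 CPM in CBL0137 and 83.7 and 85.5 CPM in DMSO (0.02 ± 0.05, edgeR adjusted p = 0.816); it was picked for mention once its values were known, and its sign turned without CBL0137 replicate 2 or DMSO replicate 1.

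Levels can be set against each other only per length, and on the deposited FPKM scale E2F4, E2F1 and RB1 led in both groups. Mean FPKM in CBL0137 was 22.8 ± 1.81 for E2F4, 17.9 ± 0.942 for E2F1 and 16.99 ± 0.322 for RB1, and in DMSO it was 20.4 ± 1.79, 18.3 ± 0.631 and 16.5 ± 0.170 for the same genes (SD, n = 2). In CBL0137, E2F5, E2F6, E2F7 and E2F2 followed, between 6.78 and 7.83 FPKM, and each of these neighbours overlapped the next. RBL1 (4.77 ± 0.134), E2F3 (3.61 ± 0.755) and E2F8 (2.79 ± 0.044) came last in CBL0137. In DMSO, E2F8 stood above RBL1 and E2F3, at 5.32 ± 0.197 FPKM against 4.93 ± 0.234 and 2.82 ± 0.369. Of the 9 pairs of neighbours, 3 overlapped in CBL0137 and 2 in DMSO. The order depends on the length used. Counts per kilobase of all annotated exons put E2F1 first, raised E2F3 to rank 4 in both groups and dropped E2F5 to rank 10 in both.

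In the make-up of the E2F pool, the share of E2F8 was lower and that of E2F4 higher in both CBL0137 libraries, with no test made. The shares of E2F2 and E2F7 were also lower in both CBL0137 libraries, and those of E2F3 and E2F5 also higher. Of the summed FPKM of E2F1 to E2F8, E2F8 held 3.74% and 3.56% in the CBL0137 libraries, against 6.55% and 7.25% in the DMSO libraries. E2F4 held 28.6% and 31.1% in CBL0137, against 27.4% and 25.4% in DMSO. The FPKM of E2F4 itself overlapped between the groups, at 21.5 and 24.1 in CBL0137 and 21.6 and 19.1 in DMSO. E2F1, E2F2 and E2F3 together held 37.99% and 37.01% in CBL0137, against 37.6% and 37.9% in DMSO. E2F4, E2F5 and E2F6 together held 49.0% and 50.0% in CBL0137, against 46.2% and 45.2% in DMSO. Shares add to a fixed whole, so a smaller share of one class raises the others.

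**Figure D3:**
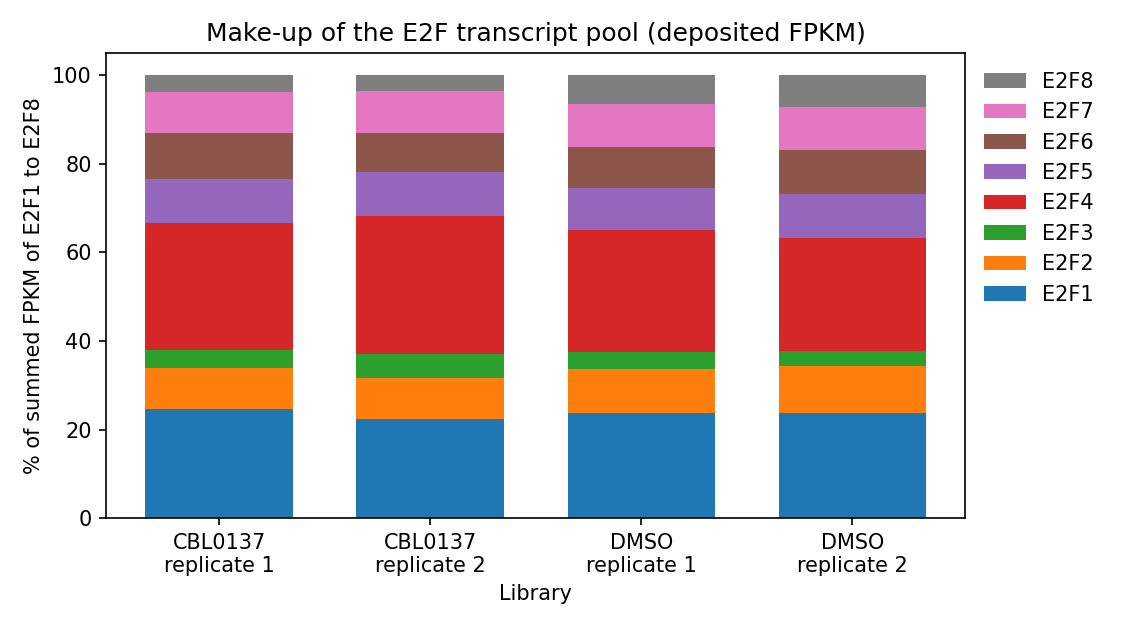
Share of each E2F gene in the summed deposited FPKM of E2F1 to E2F8 (vertical axis, percent), 1 bar per library, CBL0137 libraries on the left. E2F8, at the top of the bars, takes 3.74% and 3.56% in CBL0137 and 6.55% and 7.25% in DMSO, and E2F4 takes 28.6% and 31.1% in CBL0137 and 27.4% and 25.4% in DMSO.

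The partners and complexes of the family were read from lists of textbook members. None of the 3 DP partners, which bind DNA as dimers with E2F1 to E2F6, was called by edgeR, DESeq2 or limma-voom, although all 3 had an edgeR adjusted p under 0.05. Among all genes tested, edgeR called 9.61%, and 36.5% passed by adjusted p alone. TFDP1 measured 143 ± 4.58 CPM in CBL0137 and 172 ± 2.17 in DMSO (log2 fold change -0.27 ± 0.04, edgeR adjusted p = 1.4e-05), and TFDP2 measured 64.4 ± 0.021 in CBL0137 and 55.3 ± 0.797 in DMSO (0.22 ± 0.06, edgeR adjusted p = 0.00278; mean CPM ± SD, n = 2 here and below). So TFDP1 was lower and TFDP2 higher, both inside the fold limit, and on FPKM neither passed (limma-trend adjusted p = 0.11 and 0.966). TFDP3, a close relative of TFDP1 that may share reads with it, had 0.56 ± 0.19 (adjusted p = 0.0236). TFDP3 went past the fold limit with library size alone (0.62) or upper-quartile factors (0.61), and without CBL0137 replicate 1 (0.72) or DMSO replicate 1 (0.79). Its adjusted p did not pass with DESeq2 (0.193), on FPKM (0.11), without CBL0137 replicate 2 (0.24; log2 fold change 0.36) or without DMSO replicate 2 (0.246; log2 fold change 0.35).

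Of 9 genes of the DREAM and MuvB complexes, which silence cell cycle genes in rest and activate them before mitosis, edgeR, DESeq2 and limma-voom each called 0. Among all genes tested, edgeR called 9.61%, and by adjusted p alone 19% were lower and 17.5% higher. With edgeR, 4 of the 9 genes had an unadjusted p under 0.05, and by adjusted p alone 4 were lower and 0 higher. They were FOXM1, a mitotic activator (151 ± 3.72 CPM in CBL0137 and 198 ± 0.559 in DMSO; log2 fold change -0.39 ± 0.04), MYBL2 (-0.29 ± 0.04), LIN52 (-0.50 ± 0.09) and RBBP4 (-0.18 ± 0.04). RBBP4 changed sign on the FPKM scale (0.0728), where FOXM1 did not pass (-0.19, limma-trend adjusted p = 0.466). Of the 10 genes of the E2F6 polycomb complex, edgeR, DESeq2 and limma-voom each called 0. With edgeR, 5 had an unadjusted p under 0.05, and by adjusted p alone 3 were lower and 1 higher, near the 36.5% of all genes tested that passed. RYBP had a log2 fold change of 0.33 ± 0.07, CBX3 of -0.19 ± 0.04, L3MBTL2 of -0.24 ± 0.09 and WDR5 of -0.15 ± 0.05. On FPKM none of these 4 passed. L3MBTL2 did not pass with DESeq2 (adjusted p = 0.205), with library size alone (0.115) or upper quartiles (0.0878), without CBL0137 replicate 1 (0.278; log2 fold change -0.16), or without DMSO replicate 1 (0.0935) or 2 (0.0831). WDR5 did not pass with DESeq2 (adjusted p = 0.0705), with library size alone (0.14) or upper quartiles (0.0867), or without CBL0137 replicate 1 (0.0713) or DMSO replicate 1 (0.0665).

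Upstream of the pocket proteins, 14 of 16 kinase, cyclin and inhibitor genes were tested, 1 was called higher and 0 lower. By edgeR adjusted p alone, 1 was higher and 6 were lower, where 17.5% of all genes tested were higher and 19% lower. Over all genes tested, 9.61% were called, 6.88% higher and 2.73% lower, shares that also stand beside the corepressors below. The gene that rose was CDKN1A (p21), an inhibitor of cyclin-dependent kinases, at 89.0 ± 3.43 CPM in CBL0137 and 51.7 ± 1.67 in DMSO (log2 fold change 0.78 ± 0.05). Inhibitors CDKN2C (p18; -0.58 ± 0.05) and CDKN1B (p27; -0.53 ± 0.05) and the kinase CDK2 (-0.25 ± 0.06) were lower inside the fold limit, and CDKN2C went past it without DMSO replicate 1 (-0.62), under DESeq2 (-0.59) and with no filter on counts (-0.59). CDKN2A and CDKN2B, inhibitors of the kinases CDK4 and CDK6, had 0 reads in all 4 libraries, which allows a level of up to 0.146 CPM in the shallowest library for counting error only; both were picked for mention once their values were known. Among 11 corepressors that work with RB1, SUV39H1, a histone H3 methyltransferase, fell (-0.61 ± 0.09), 0 rose and 10 were not called. SUV39H1 was no longer called on FPKM (-0.47), with library size alone (-0.55), with upper-quartile factors (-0.56) and without CBL0137 replicate 1 (-0.55). RBBP7 (-0.54 ± 0.04), DNMT1 (-0.28 ± 0.03) and SMARCA4 (-0.13 ± 0.03) were not called, and SMARCA4 lost its adjusted p with library size alone (0.132), with upper quartiles (0.0668) and on FPKM (0.433).

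Most of the listed targets of the family were lower by adjusted p. Of 30 E2F targets of G1/S, 3 fell, 0 rose and 27 were not called. By adjusted p alone 24 were lower and 0 higher, and their median log2 fold change was -0.34. Over all genes tested, 9.61% were called, 2.73% lower, and 19% were lower by adjusted p alone. RRM2, a subunit of ribonucleotide reductase, measured 166 ± 4.19 CPM in CBL0137 and 343 ± 0.489 in DMSO (-1.05 ± 0.04). ATAD2, an E2F coactivator, had -0.58 ± 0.04, the helicase subunit MCM7 -0.39 ± 0.03 and the replication clamp PCNA -0.44 ± 0.04, none of them called. ATAD2 went past the fold limit with no filter on counts (-0.59) and without CBL0137 replicate 1 (-0.60) or DMSO replicate 1 (-0.59). Of 18 DREAM targets of G2/M, 9 fell, 0 rose and 9 were not called, and all 18 were lower by adjusted p alone, with a median of -0.59. AURKB (-0.98 ± 0.05), CDK1 (-0.85 ± 0.05), CCNA2 (-0.77 ± 0.04) and UBE2C (-0.75 ± 0.04) had the smallest adjusted p. E2F8 at -0.94 lies within the range of the called genes of each of these lists, G1/S and G2/M. E2F7 at -0.19 and E2F1 at -0.10 lie above the medians of both lists. The lists hold genes that differ in level and whose choice was not independent of earlier results, so they are described and not tested as sets.

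Of 9 apoptosis genes known as E2F1 targets, 1 fell, 0 rose and 8 were not called. Over all genes tested, 9.61% were called, 2.73% lower and 6.88% higher. BBC3 (PUMA), a pro-apoptotic BCL2 relative, measured 2.55 ± 0.239 CPM in CBL0137 and 5.38 ± 0.865 in DMSO (-1.07 ± 0.20). PMAIP1 (-0.51 ± 0.06), APAF1 (-0.20 ± 0.06) and MAP3K5 (-0.27 ± 0.10) were lower inside the fold limit. APAF1 and MAP3K5 did not pass with DESeq2 (adjusted p = 0.105 and 0.202), on FPKM (0.47 and 0.391), with library size alone (0.0797 and 0.0935) or with upper quartiles (0.0535 and 0.0733). Without CBL0137 replicate 2 their adjusted p was 0.247 and 0.0924 and without DMSO replicate 2 it was 0.149 and 0.171, and MAP3K5 also missed the limit without CBL0137 replicate 1 (0.073). Of 6 factors that act on E2F and pocket protein turnover, 1 fell and 5 were not called. CCNF (cyclin F), a ubiquitin ligase subunit that targets E2Fs, measured 45.3 ± 0.388 CPM in CBL0137 and 82.7 ± 0.949 in DMSO (-0.87 ± 0.05). FBXO5 (EMI1; -0.52 ± 0.06), FZR1 (CDH1 of the anaphase-promoting complex; -0.43 ± 0.05) and SKP2 (-0.30 ± 0.04) were lower inside the fold limit, and FBXO5 passed it without CBL0137 replicate 1 (-0.61).

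**Figure D4:**
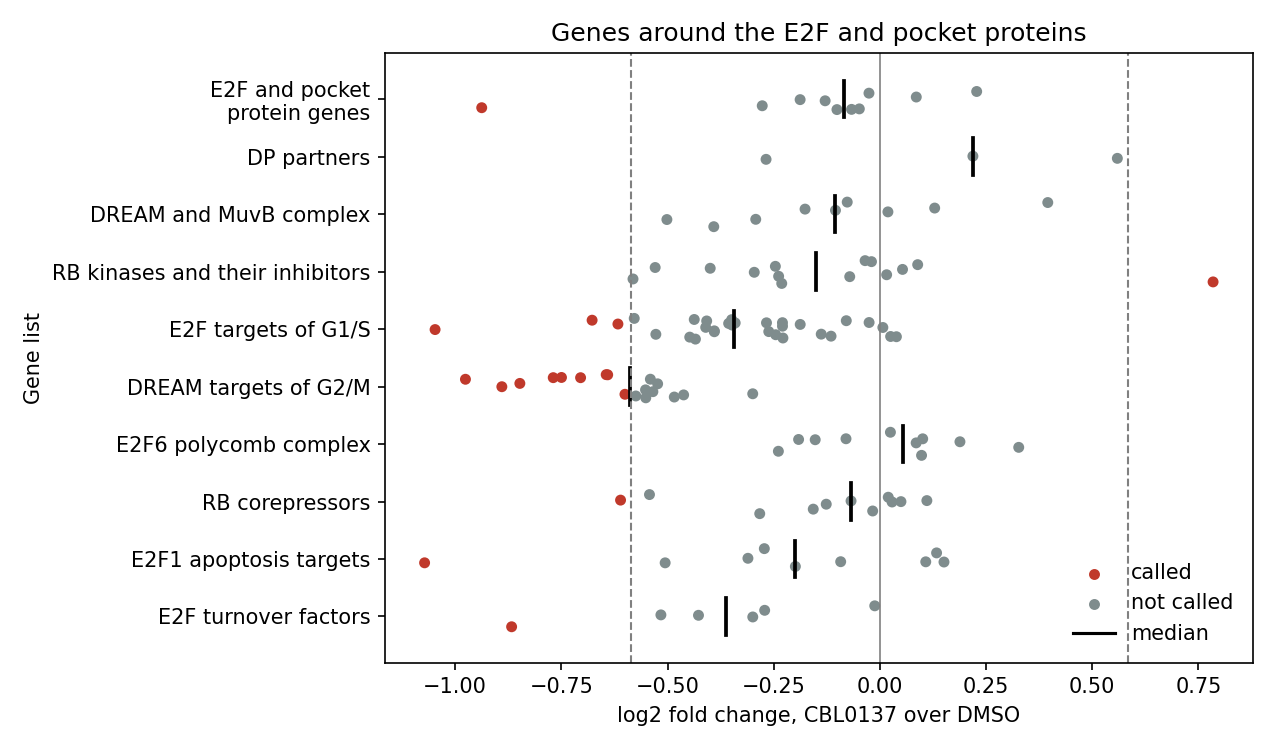
Log2 fold change of CBL0137 over DMSO (horizontal axis) for every tested gene of each list, with called genes in red, others in grey, black bars at list medians and dashed lines at the fold limit of 1.5. The family has 1 called gene, E2F8 at -0.94, and a median of -0.08, while the medians of the G1/S and G2/M target lists stand at -0.34 and -0.59.

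Reads assigned to genes numbered 20483714 and 22817617 in CBL0137 replicates 1 and 2, and 23373554 and 23031963 in DMSO replicates 1 and 2, and the members had between 288 and 2831 reads per library. All 7 markers of the line were detected, with FLI1 at 69.4 and 69.8 CPM in CBL0137 and 70.5 and 64.9 in DMSO. None was called, and 4 passed by adjusted p alone: NR0B1 (0.29, edgeR adjusted p = 8.7e-07) and NKX2-2 (0.20, 0.0137) were higher, and PRKCB (-0.23, 3.2e-06) and EWSR1 (-0.19, 0.000145) were lower. The 9 epithelial, blood and endothelial markers with an ID summed to 2.28 and 2.07 CPM in CBL0137 and 2.27 and 1.86 in DMSO, and GRHL2 and CD3E had 0 reads. Among them CDH5 was called higher, with 19 and 17 reads in CBL0137 and 4 and 3 in DMSO; its part in these results was not tested. No label states that replicates are separate cultures. Each p-value therefore reflects library-to-library spread, which could be purely technical. EdgeR's fit shares information on this spread across genes, so a gene's p-value rests only partly on its own spread.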

How the data were processed

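Messenger RNA of A673 cells was measured in 4 libraries, 2 per group, grouped by sample title. The deposited counts come from reads trimmed by Trim Galore, aligned to hg19 by HISAT2 and counted by HTSeq 0.11.1, per the submitters' processing notes, which also name DESeq2 1.26.0. For the counts, annotation release and strand setting are not given in the sources used here. Deposited FPKM were computed by the authors from mapped reads, gene length and depth, per the labels, with a tool not given in the sources used here; 4109 to 4130 genes per library with a count of 0 had an FPKM above 0, so the counts and FPKM differ in how reads were assigned. HTSeq summary rows, 23.7% to 24.8% of reads, stayed out of library sizes and tests.

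IDs were matched to GENCODE release 44 lifted to GRCh37 (hg19). The test was edgeR 4.0.16 in R 4.3.3 with TMM factors, filterByExpr by group (minimum count 10) and quasi-likelihood tests for CBL0137 over DMSO in 17309 genes. The limits for a call were those of the series, a fold change above 1.5 and a Benjamini-Hochberg adjusted p under 0.05. SE is the size of the log2 fold change over the square root of F. The common coefficient of variation was 3.18%. The fit was first tested on simulated data. Alternatives used limma 3.58.1, DESeq2 1.42.0, other factors, filters and limits, left-out libraries and a replicate block; FPKM were tested as log2(FPKM + 1) for genes with at least 1 FPKM in 2 libraries, a scale that understates changes of low genes. The 9 gene lists, the markers and the members were chosen with earlier results of these data known. Named genes are the members and, per list, up to 4 with the smallest adjusted p, plus called genes of lists of at most 10. PECAM1 had no matching ID. Tables and figures used Python 3.11.15, pandas 2.3.3 and matplotlib 3.10.9.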

Additional observations from a re-analysis of the deposited data

How the results depend on the processing

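E2F8 was called lower under every setting tried except a fold limit of 2, with log2 fold changes of -0.96 to -0.74. With other factors, filters, tools, FPKM, left-out libraries and the replicate block, the family kept 1 call, all of it E2F8. Without a fold limit the family had 4 calls, 1 higher and 3 lower, and at a fold limit of 2 it had 0, with 0 lower. Over all genes the 1663 calls, 1191 higher and 472 lower, became 6314, 3022 and 3292 without a fold limit; 736, 605 and 131 at a fold limit of 2; and 577, 388 and 189 with limma-trend on FPKM. DESeq2 gave 923 calls, 596 of them higher. Signs turned for genes that were not called: E2F5 on FPKM (0.0366); RB1 on FPKM (0.0392), with library size alone (0.0357) and with upper quartiles (0.0224), with -0.0638 to 0.0013 as replicates were left out; RBL1 under library size alone (0.0131), with -0.1357 to 0.0328 as replicates were left out; RBL2 as replicates were left out (-0.0546 to 0.0813); and RBBP4 on FPKM (0.0728). The cause of these turns was not tested. The median log2 fold change of all genes tested was 0.0032 in the main fit, 0.0645 with library size alone and 0.0513 with upper-quartile factors. The deviations of same-numbered libraries from their group means had a correlation of -0.093 over 11336 genes. With 2 libraries per group this cannot tell whether replicate numbers mark a shared culture or day. With the replicate block E2F8 measured -0.94 and the family had 1 call, 0 higher. Of the 10 ranks by level per length, 3 in CBL0137 and 2 in DMSO were the same with counts per kilobase. With 2 libraries per group and 412 to 487 reads per library, the 95% interval of E2F5 spans -0.25 to 0.11 on the log2 scale. A true difference anywhere in that range is compatible with these libraries. On FPKM, CDK2, DNMT1, FZR1 and SKP2 had no adjusted p under 0.05 (limma-trend, 0.115, 0.0639, 0.0641 and 0.123 in that order).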
